A study of Mus musculus with 6 samples.

Results

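Genes of cholesterol synthesis, uptake and efflux were examined in cells labelled as radial glial progenitors. Such progenitors are stem cells lining the ventricles of the embryonic mouse cortex. The set is a list of 28 gene symbols, each matched to 1 gene identifier in the deposited table of 32285 genes. It holds 18 enzymes of sterol synthesis, 4 regulators of the transcription factor SREBP2, a sterol carrier, a cholesterol esterification enzyme and 4 genes of efflux and of the nuclear receptor LXR, but no lipoprotein receptor. The cells came from the neocortex of wild-type embryos at E10.5 and were dissociated and cultured. The GSK group received GSK2837808A, an inhibitor of lactate dehydrogenase, from about 2 h after plating, and the DMSO group received the same volume of the solvent alone. After about 24 h, roughly 1000 cells per sample that carried CD133 and excluded the dead-cell dye DAPI were sorted, and bulk libraries were made with the Smart-seq2 protocol. Each group has 3 libraries. The label gives the inhibitor dose as 100 mM, which is implausibly high and could not be verified. Whether the replicates are separate cultures or animals is not stated, and the p-values reflect only the spread among these libraries, which may be technical.

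Animal cells build cholesterol from acetyl-CoA, first through the mevalonate steps to isoprenoid units and then through the sterol steps from squalene onward. When sterol in the endoplasmic reticulum is low, SCAP carries SREBP2 to the Golgi, where it is cleaved and released to switch on synthesis and uptake genes, and the INSIG proteins hold SCAP back when sterol is plentiful. Oxysterols activate LXR, which switches on the efflux pumps ABCA1 and ABCG1 and the ubiquitin ligase MYLIP, which limits lipoprotein uptake. Once the blood-brain barrier has formed, the brain makes nearly all of its own cholesterol.

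All 18 synthesis enzyme genes were higher in GSK libraries, and so were both efflux pump genes, Insig1, Insig2 and Stard4. Over the whole set, 23 of 28 genes rose, Scap alone fell, and Srebf2, Soat1, Mylip and Nr1h2 did not pass the test (limma on log2(value + 1), Benjamini-Hochberg adjusted p below 0.05 over all genes tested). All 28 were above the minimum mean of 10 normalised reads. Among all 15073 tested genes, 17.0% were called higher and 19.1% lower. At least 2-fold rises were seen for 11 of the 28 genes, 10 of them synthesis enzymes, against 5.04% of all tested genes. The 3 GSK values lay wholly above the 3 DMSO values for 24 of the 28 genes, against 22.8% of all tested genes, and wholly below them for Scap alone, against 24.4%. The median log2 fold change was 1.13 over the synthesis enzymes and 0.51 over the 4 efflux and LXR genes, beside 0.01 over all tested genes. The list was chosen with results of these data in view, so these counts are a description of it.

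**Figure D1:**
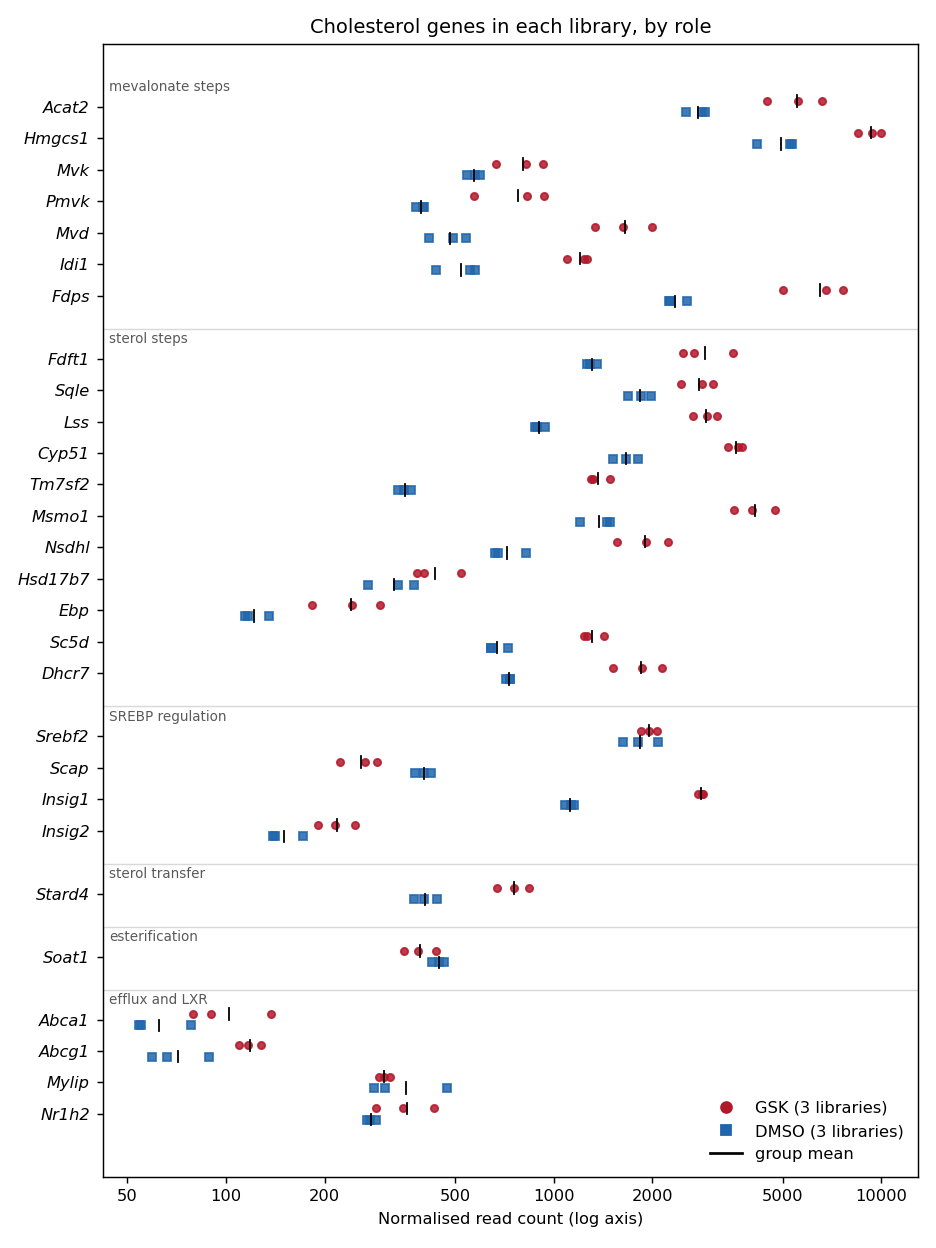
Normalised read count (log axis) of each of the 28 genes in the 3 GSK libraries (red circles) and the 3 DMSO libraries (blue squares), with the group mean as a short black line, grouped by role. All synthesis rows have their GSK points right of their DMSO points, while those of Srebf2, Soat1 and Mylip overlap.

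The summed level of the 18 synthesis genes was 44105, 49430 and 54107 normalised reads in GSK libraries, against 23082, 22638 and 20382 in DMSO libraries, a ratio of means of 2.23. As a share of all reads, they took 0.539%, 0.526% and 0.588% in GSK libraries and 0.277%, 0.262% and 0.24% in DMSO libraries. The share over reads outside globin and ribosomal-RNA-overlapping genes gave a ratio of 2.29. The 7 mevalonate genes summed to a ratio of 2.14 and the 11 sterol genes to 2.34. In bulk samples, fewer cells of a type and less RNA per cell cannot be told apart. Marker sums of other cell types, given after the gene results, differed between the groups as well, and their part in these results was not tested.

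Promoters are shown for genes that rose in the same libraries. Among the synthesis genes, Hmgcs1 was taken because its window alone held the SRE-like motif, and Tm7sf2 and Lss for their smallest p-values. Insig1, the regulator with the largest rise, was added outside that choice, and Abca1 stands for the efflux genes. Each window runs from 250 bases before to 50 bases after the transcription start, from RefSeq on GRCm38.p6, and is written 5′ to 3′ on the gene's own strand. Capitals mark matches to TCACNCCAC (an SRE-like motif, the kind of site SREBP binds), ATTGG (the CCAAT box bound by NF-Y) and CACGTG (an E-box), each searched on both strands. The windows are Hmgcs1 at chr13:119690101-119690400 on the plus strand, Tm7sf2 at chr19:6067801-6068100 on the minus strand, Lss at chr10:76531355-76531654 on the plus strand, Insig1 at chr5:28071162-28071461 on the plus strand and Abca1 at chr4:53159846-53160145 on the minus strand.
Hmgcs1: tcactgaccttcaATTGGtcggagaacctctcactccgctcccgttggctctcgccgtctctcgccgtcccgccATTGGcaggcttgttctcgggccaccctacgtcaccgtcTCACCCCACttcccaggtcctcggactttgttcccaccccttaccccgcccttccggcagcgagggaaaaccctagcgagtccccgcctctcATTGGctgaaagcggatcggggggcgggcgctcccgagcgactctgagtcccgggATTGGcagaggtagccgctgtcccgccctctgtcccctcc
Tm7sf2: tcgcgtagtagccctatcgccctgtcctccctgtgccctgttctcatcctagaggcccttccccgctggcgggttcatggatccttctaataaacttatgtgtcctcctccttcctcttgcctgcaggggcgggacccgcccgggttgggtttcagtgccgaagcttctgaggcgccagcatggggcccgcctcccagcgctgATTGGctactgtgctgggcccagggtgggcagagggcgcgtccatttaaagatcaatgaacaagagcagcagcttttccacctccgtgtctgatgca
Lss: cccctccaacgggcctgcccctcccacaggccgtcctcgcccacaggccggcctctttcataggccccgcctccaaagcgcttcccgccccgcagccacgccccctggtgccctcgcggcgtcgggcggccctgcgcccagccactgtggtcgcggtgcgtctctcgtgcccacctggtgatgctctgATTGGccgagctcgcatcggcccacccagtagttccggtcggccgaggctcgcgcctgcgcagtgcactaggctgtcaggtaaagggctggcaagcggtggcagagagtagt
Insig1: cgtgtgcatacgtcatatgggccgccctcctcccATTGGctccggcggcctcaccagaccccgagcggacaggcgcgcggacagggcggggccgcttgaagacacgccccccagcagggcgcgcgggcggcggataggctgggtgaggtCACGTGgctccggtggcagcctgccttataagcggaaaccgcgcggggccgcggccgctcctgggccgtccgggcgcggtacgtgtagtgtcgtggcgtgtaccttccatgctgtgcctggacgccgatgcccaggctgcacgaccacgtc
Abca1: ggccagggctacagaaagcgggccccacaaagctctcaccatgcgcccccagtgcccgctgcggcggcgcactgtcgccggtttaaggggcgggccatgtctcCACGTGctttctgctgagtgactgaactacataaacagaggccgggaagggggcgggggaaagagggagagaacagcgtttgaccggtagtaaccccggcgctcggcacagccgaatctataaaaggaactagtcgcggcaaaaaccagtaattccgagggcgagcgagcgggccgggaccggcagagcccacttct

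In the Hmgcs1 window the SRE-like match began 137 bases before the start, with ATTGG at 237, 176 and 45 bases before it and a further match after it. ATTGG lay 47 bases before the Tm7sf2 start and 62 bases before the Lss start. Insig1 had ATTGG at 216 and CACGTG at 101 bases before its start, and Abca1 had CACGTG at 147 bases before. Windows were available for 15 of the 18 synthesis genes, 18 windows in all, and 14 of those 18 (77.8%) held ATTGG, against 37.4% of all 32851 windows. CACGTG was present in 3 of them (16.7%), against 7.15% of all windows, and TCACNCCAC in 1 (5.56%), against 1.24%. For LXR, only exact pairs of AGGTCA repeats in the same direction with 4 bases between them were searched. These were in none of the 3 windows of efflux and LXR genes and in 0.0152% of all windows. Exact pairs are so rare that their absence cannot show whether a window holds a looser LXR-type site, which was not searched for. In the printed windows no match overlapped another. These matches describe letters in a window and were not tested as binding sites.

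The 7 mevalonate genes all rose, with log2 fold changes of 0.48 to 1.76 and a median of 0.99. Mvd, whose product makes isopentenyl pyrophosphate (chromosome 8, 122433601 to 122443422, GRCm38), had 1338, 1631 and 1993 normalised reads in GSK libraries, against 540, 495 and 418 in DMSO libraries. That is a log2 fold change of 1.76 ± 0.15 (standard error; limma adjusted p = 1.82e-08), the largest of this branch, and the lowest GSK library lay far above the highest DMSO library. Fdps, which encodes farnesyl pyrophosphate synthase at the point where sterol and nonsterol products part, had 5018, 6782 and 7676 normalised reads in GSK libraries and 2554, 2249 and 2260 in DMSO libraries (log2 fold change 1.44 ± 0.16, limma adjusted p = 4.72e-07). Its GSK libraries were spread more widely than its DMSO libraries, without overlap. Idi1, the isomerase that supplies the other isoprene unit, had 1103, 1240 and 1264 in GSK libraries and 556, 576 and 438 in DMSO libraries (1.21 ± 0.14, limma adjusted p = 7.21e-07).

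The first steps of the branch rose by nearly 2-fold. Acat2, the cytosolic thiolase that joins acetyl-CoA units (not the esterification enzyme of a similar name), had 4474, 5568 and 6588 normalised reads in GSK libraries and 2902, 2832 and 2541 in DMSO libraries (log2 fold change 0.99 ± 0.15, limma adjusted p = 3.58e-05). Its near copy Acat3, 97.7% identical over 1477 bases, averaged 1184 in GSK and 1284 in DMSO libraries and did not pass (limma adjusted p = 0.479), and how reads of both were assigned is not given in the sources used here. Acat2 also had a 98.7% match over 445 bases to Tcp1, which averaged 4544 in GSK and 5002 in DMSO libraries. Hmgcs1, the synthase that makes HMG-CoA (chromosome 13, 119690379 to 119708260), had 10013, 9395 and 8478 in GSK libraries and 5273, 5349 and 4178 in DMSO libraries (0.92 ± 0.15, limma adjusted p = 6.99e-05). Its groups did not overlap. The kinase genes of the branch had rises of unlike size. Pmvk had 571, 832 and 937 normalised reads in GSK libraries and 380, 400 and 402 in DMSO libraries (0.95 ± 0.16), while Mvk, the kinase before it, had 667, 823 and 927 in GSK libraries and 575, 598 and 544 in DMSO libraries (0.48 ± 0.14, limma adjusted p = 0.00914). Mvk had the smallest rise of the branch, and GSK replicate 1 lay closest to the DMSO values for both kinases.

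The 11 sterol genes rose as well, with log2 fold changes of 0.41 to 1.96 and a median of 1.13. Tm7sf2, which encodes a sterol reductase of the endoplasmic reticulum (chromosome 19, 6062821 to 6068373), had 1305, 1319 and 1486 normalised reads in GSK libraries and 368, 350 and 335 in DMSO libraries. Its log2 fold change of 1.96 ± 0.13 (limma adjusted p = 4.13e-10) was the largest among the 28 genes. Lss, which encodes the cyclase that forms lanosterol (chromosome 10, 76531588 to 76557138), had 2672, 2946 and 3155 in GSK libraries and 878, 942 and 888 in DMSO libraries (1.69 ± 0.13, limma adjusted p = 3.77e-09). In both genes the lowest GSK library was more than 2-fold above the highest DMSO library.

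Removal of the methyl groups of lanosterol takes several enzymes in turn. Cyp51, the demethylase that starts it, had 3416, 3658 and 3750 normalised reads in GSK libraries and 1666, 1806 and 1516 in DMSO libraries (log2 fold change 1.12 ± 0.13, limma adjusted p = 1.4e-06). Msmo1, a sterol oxidase, had 3564, 4041 and 4753 in GSK libraries and 1488, 1201 and 1453 in DMSO libraries (1.57 ± 0.14, limma adjusted p = 5.02e-08). Nsdhl, the X-linked dehydrogenase that acts after it, had 1564, 1918 and 2230 in GSK libraries and 823, 662 and 676 in DMSO libraries (1.39 ± 0.14). For these 3 genes the groups stood clearly apart. Hsd17b7, the ketoreductase that completes the removal, had 522, 383 and 401 normalised reads in GSK libraries and 375, 335 and 271 in DMSO libraries. Its log2 fold change of 0.41 ± 0.16 was the smallest of the synthesis genes (limma adjusted p = 0.0446), and the call was lost in 8 of 16 alternative analyses, among them edgeR (adjusted p = 0.0541) and DESeq2 (0.0539) and without GSK replicate 1 (0.123), DMSO replicate 2 (0.0867) or DMSO replicate 3 (0.223). GSK replicate 2 exceeded DMSO replicate 1 only narrowly.

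The steps on both sides of this stretch also rose. Fdft1, squalene synthase, had 2477, 2683 and 3543 normalised reads in GSK libraries and 1266, 1362 and 1295 in DMSO libraries (log2 fold change 1.13 ± 0.14, limma adjusted p = 3.36e-06). Sqle, squalene epoxidase and a rate-limiting step of the pathway, had 2456, 2834 and 3058 in GSK libraries and 1843, 1988 and 1689 in DMSO libraries (0.59 ± 0.14, limma adjusted p = 0.0018). Sqle thus changed less than the genes before and after it in the pathway, a difference that was not tested. Of the late steps, Dhcr7, the reductase that yields cholesterol from its precursor, had 1520, 1867 and 2143 in GSK libraries and 736, 736 and 716 in DMSO libraries (1.32 ± 0.14). Sc5d, a sterol desaturase, had 1241, 1267 and 1429 in GSK libraries and 724, 644 and 644 in DMSO libraries (0.97 ± 0.13). Ebp, an X-linked sterol isomerase, had 183, 243 and 296 in GSK libraries and 135, 114 and 117 in DMSO libraries (0.95 ± 0.18, limma adjusted p = 0.000306). None of the 3 late genes had overlapping groups.

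Some of these genes share exon bases with a neighbour. Smart-seq2 reads carry no strand, so reads of opposite-strand genes cannot be told apart. Fdft1 shares 18.3% of its exon bases with Ctsb, a lysosomal protease gene on the opposite strand that itself averaged 2325 normalised reads in GSK and 1163 in DMSO libraries. Hmgcs1 shares 12.1% with Gm48342 on the opposite strand, which averaged 2827 in GSK and 1552 in DMSO libraries, and Lss shares 3.5% with 4930483K19Rik, which averaged 340.3 in GSK and 120.8 in DMSO libraries. Scap shares 13.2% with 5830462I19Rik, Idi1 9.2% with Gm48574 and Cyp51 3.8% with Akap9, all on the opposite strand. On the same strand, Fdps shares 26.7% with Gm43738, the largest share among the 28 genes, and Tm7sf2 shares 12.1% with Vps51, which averaged 307 in GSK and 389 in DMSO libraries. Near copies were also found for Fdft1 (Gm6781, 97.4% identical over 1249 bases) and Idi1. Those of Idi1 were Gm13502 (100% over 684 bases), Gm35570 (97.7% over 681) and Gm8911 (90.6% over 679). How reads shared with them were assigned is not given in the sources used here. No values of 5830462I19Rik, Gm48574, Gm43738 or these near copies were used here.

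**Figure D2:**
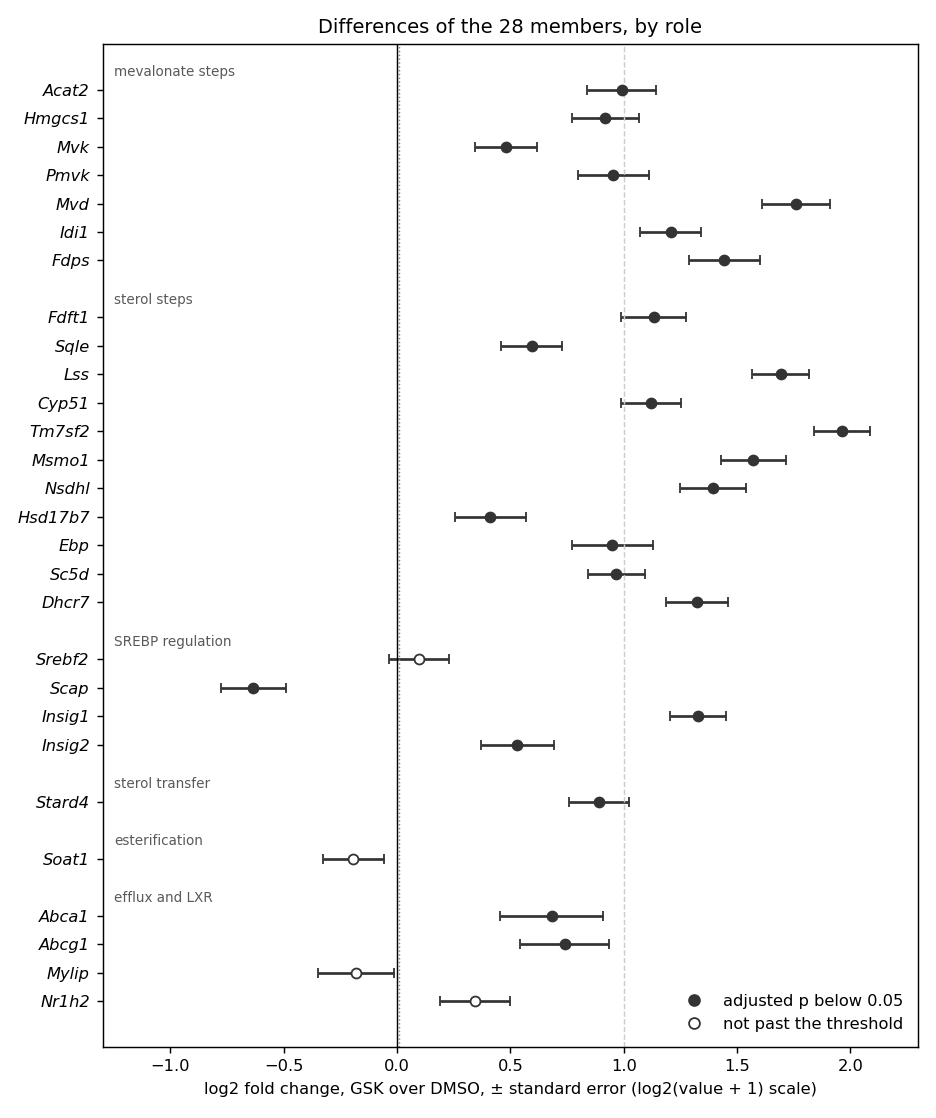
Log2 fold change of GSK over DMSO for the 28 genes on the log2(value + 1) scale, with bars of 1 standard error from limma and filled points for adjusted p below 0.05. The dotted line is the median over all tested genes (0.01) and the dashed line a 2-fold rise. Synthesis genes run from 0.41 for Hsd17b7 to 1.96 for Tm7sf2, and Scap is the only filled point below 0.

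Per kilobase of merged exons, which allows levels of different genes to be compared, Acat2 averaged 2179 normalised reads in GSK and 1084 in DMSO libraries, Hmgcs1 2023 in GSK and 1074 in DMSO libraries, and Fdps 1543 in GSK and 560 in DMSO libraries. These were the highest levels of the set. Hsd17b7 averaged 85.3 in GSK and 64.1 in DMSO libraries and Ebp 104 in GSK and 52.9 in DMSO libraries, the lowest of the synthesis genes on this scale. The efflux pump genes were lower again, at 9.85 in GSK and 6.02 in DMSO libraries for Abca1 and at 16.2 in GSK and 9.77 in DMSO libraries for Abcg1. Merged exons include retained introns of minor transcripts, which lowers these values for some genes.

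The GSK libraries differed among themselves in a shared order. GSK replicate 1 was the lowest of the GSK libraries for 16 of 18 synthesis genes, and GSK replicate 3 the highest for 16. Over all genes called higher, GSK replicate 1 was lowest for 60.0% and GSK replicate 3 highest for 47.8%, and over all tested genes these shares were 45.7% and 38.1%. Hmgcs1 and Hsd17b7 were the exceptions, both with GSK replicate 1 highest. Among the GSK libraries, the marker sums of erythroid cells, microglia and macrophages, radial glia, neurons and intermediate progenitors were also lowest in GSK replicate 1, and those of mesenchyme and pericytes, endothelium, and the oligodendrocyte lineage and neural crest were highest there. The neuron sum follows Tubb3, with 11529, 14490 and 16019 normalised reads in GSK libraries. Tubb3, Stmn2, Gap43 and Neurod6 were lowest in GSK replicate 1, Snap25 was lowest in GSK replicate 2, and Dcx, Map2, Reln and Tbr1 were highest in GSK replicate 1.

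The regulators of SREBP2 did not change together. Srebf2, which encodes SREBP2 itself (chromosome 15, 82147181 to 82205379), had 2076, 1953 and 1847 normalised reads in GSK libraries and 1625, 2085 and 1808 in DMSO libraries. The groups overlapped, and the log2 fold change of 0.10 ± 0.13 did not pass (limma adjusted p = 0.608). Transcript levels do not show how much SREBP2 protein is cleaved. Scap, its escort protein (chromosome 9, 110333288 to 110384950), fell to 265, 223 and 289 in GSK libraries, against 422, 403 and 378 in DMSO libraries (log2 fold change -0.64 ± 0.14, limma adjusted p = 0.00159). All GSK values of Scap lay below all DMSO values.

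Both genes of the retention proteins rose. Insig1, itself a target of SREBP2 (chromosome 5, 28071363 to 28078662), had 2869, 2839 and 2755 normalised reads in GSK libraries and 1132, 1157 and 1083 in DMSO libraries (log2 fold change 1.33 ± 0.12, limma adjusted p = 6.79e-08). Its replicates were nearly alike within each group. Insig2, its paralog on chromosome 1 (121304353 to 121332589), had 191, 247 and 216 in GSK libraries and 172, 141 and 139 in DMSO libraries (0.53 ± 0.16, limma adjusted p = 0.0144). Insig2 lost its call without GSK replicate 2 (adjusted p = 0.102), DMSO replicate 2 (0.062) or DMSO replicate 3 (0.0549). The log2 ratio of Insig1 over Insig2 was 3.9, 3.52 and 3.66 in GSK libraries and 2.71, 3.03 and 2.95 in DMSO libraries. The difference of 0.80 had a two-sided exact permutation p of 0.1, the smallest that 3 against 3 allows.

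Sterol handling inside the cell was represented by Stard4 and Soat1. Stard4, a soluble carrier that moves sterol between membranes, had 670, 756 and 844 normalised reads in GSK libraries and 442, 376 and 401 in DMSO libraries (log2 fold change 0.89 ± 0.13, limma adjusted p = 2.77e-05). Soat1, which esterifies cholesterol for storage, had 385, 439 and 349 in GSK libraries and 447, 426 and 464 in DMSO libraries, which overlap (-0.19 ± 0.14, limma adjusted p = 0.28). Its relative Soat2, not in the set of 28, had 50.1, 45.0 and 47.7 in GSK libraries and 2.12, 6.01 and 3.72 in DMSO libraries (3.37 ± 0.41, limma adjusted p = 1.88e-06). Its DMSO mean of 3.95 is below the minimum mean, so it was tested only through its GSK values, and the fold change ran from 2.05 with a pseudocount of 10 to 3.66 without DMSO replicate 2. Per kilobase of merged exons, Soat2 averaged 21.5 normalised reads in GSK and 1.79 in DMSO libraries, and Soat1 39.9 in GSK and 45.5 in DMSO libraries. The log2 ratio of Soat2 over Soat1, which was not planned, was -2.92, -3.26 and -2.84 in GSK libraries and -7.16, -5.93 and -6.62 in DMSO libraries (exact permutation p = 0.1, the smallest possible). This ratio repeats the difference through which Soat2 came to be tested, so its p-value is no separate support.

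Of the efflux and LXR genes, both pump genes rose and the other 2 did not pass. Abca1, which loads cholesterol onto lipid-poor apolipoproteins (chromosome 4, 53030787 to 53159895), had 137, 90.0 and 79.6 normalised reads in GSK libraries and 54.2, 55.0 and 78.1 in DMSO libraries (log2 fold change 0.68 ± 0.23, limma adjusted p = 0.024). GSK replicate 3 and DMSO replicate 3 lay side by side, and the call was lost without GSK replicate 1 (0.45, adjusted p = 0.122), DMSO replicate 1 (0.0915) or DMSO replicate 2 (0.0861) and with equal library totals (0.0745). Abcg1, which passes cholesterol to mature lipoproteins (chromosome 17, 31057675 to 31117988), had 110, 128 and 117 in GSK libraries and 65.9, 88.5 and 59.5 in DMSO libraries (0.74 ± 0.20, limma adjusted p = 0.00561). Its groups did not overlap, and it kept its call in all 15 alternatives in which it was tested. The pumps together summed to 247, 218 and 196 in GSK libraries and 120, 143 and 138 in DMSO libraries, a ratio of 1.65. GSK replicate 1 was highest in this sum through Abca1, whereas it was lowest for Abcg1 and for the synthesis sum.

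Mylip, the ligase gene switched on by LXR, had 316, 303 and 294 normalised reads in GSK libraries and 305, 284 and 474 in DMSO libraries (log2 fold change -0.18 ± 0.17, limma adjusted p = 0.428). DMSO replicate 3 alone stood high, and without it the value was 0.05. Nr1h2, which encodes LXR beta, had 288, 347 and 433 in GSK libraries and 275, 287 and 269 in DMSO libraries (0.34 ± 0.15, limma adjusted p = 0.0888). Its groups did not overlap, although GSK replicate 1 and DMSO replicate 2 were nearly equal. It passed without GSK replicate 1 (adjusted p = 0.006) and with totals that leave out globin and ribosomal-RNA-overlapping genes (0.0438).

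**Figure D3:**
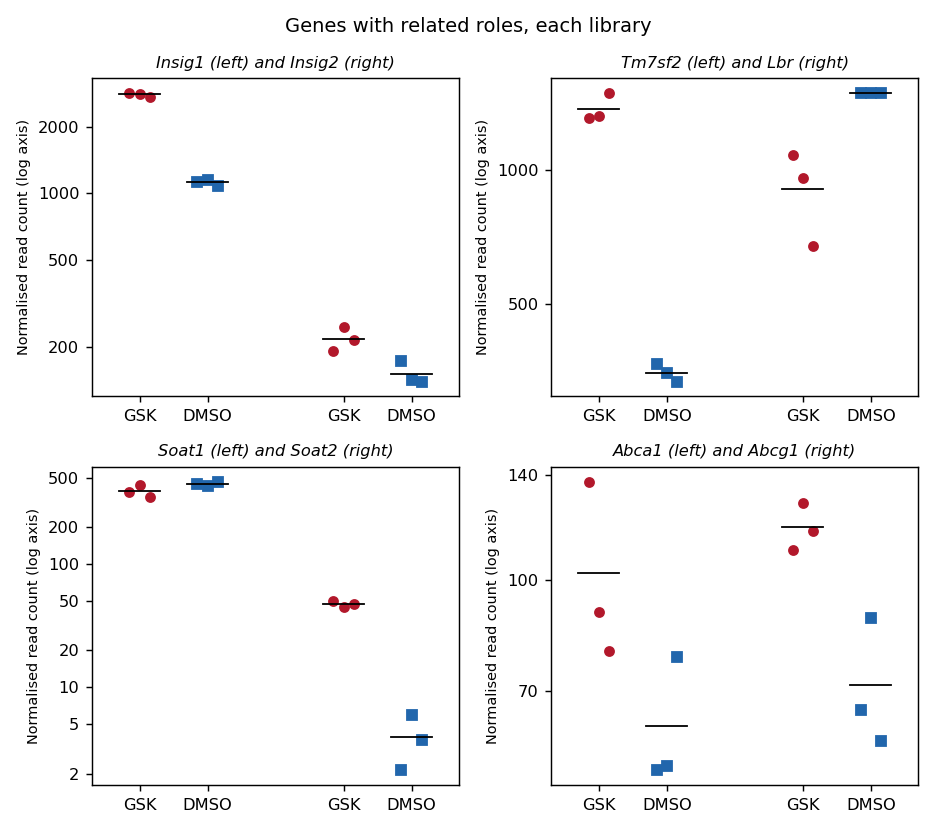
Normalised read counts (log axis) of genes with related roles, with the 3 GSK libraries (red circles) left of the 3 DMSO libraries (blue squares) for each gene, replicates 1 to 3 from left to right, and the mean as a line. Insig1 is higher in GSK libraries by more than Insig2, Tm7sf2 and Lbr move in opposite directions, Soat2 is higher in GSK libraries while the Soat1 groups overlap, and the Abca1 groups nearly touch.

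Counts in the other lists of the pathway stand beside 17.0% of all tested genes called higher and 19.1% called lower, with 5 to 13 genes tested in each list. In the lists of nonsterol branches and of SREBP processing, only 1 or 2 genes were called in each direction. Such counts are too few to set these lists apart from all tested genes. Of 7 further synthesis and precursor genes, 2 rose and 1 fell, with a median log2 fold change of 0.26. Acss2, which makes acetyl-CoA from acetate in the cytosol, had 493, 562 and 666 normalised reads in GSK libraries and 262, 333 and 242 in DMSO libraries (1.04 ± 0.15, limma adjusted p = 2.19e-05), and Aacs, which activates acetoacetate, rose by 0.67 on the log2 scale. Lbr, a nuclear membrane protein with the same sterol reductase activity as Tm7sf2, fell to 1083, 961 and 676 in GSK libraries, against 1486, 1485 and 1489 in DMSO libraries (-0.74 ± 0.15, limma adjusted p = 0.000666). The log2 ratio of Tm7sf2 over Lbr, chosen after its values were seen, was 0.27, 0.46 and 1.13 in GSK libraries and -2.01, -2.08 and -2.15 in DMSO libraries (exact permutation p = 0.1, the smallest possible). Both genes already separated the groups fully, in opposite directions. The p-value of their ratio was thus fixed beforehand and is no separate support. Per kilobase of merged exons, Tm7sf2 averaged 311 normalised reads in GSK and 79.6 in DMSO libraries, and Lbr 190 in GSK and 312 in DMSO libraries. Acly, the citrate lyase that supplies acetyl-CoA, had 5858, 4508 and 3914 in GSK libraries and 3807, 4267 and 3724 in DMSO libraries, which overlap, and did not pass (0.26, limma adjusted p = 0.206).

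Among 12 genes of the nonsterol branches, which make ubiquinone, dolichol and protein prenyl groups, 2 rose and 1 fell (median 0.07). Fnta, a prenyltransferase subunit, and Ggps1, geranylgeranyl pyrophosphate synthase, rose by 0.65 and 0.41 on the log2 scale. Pdss1, a subunit of the enzyme that builds the ubiquinone tail, fell to 105, 121 and 91.3 normalised reads in GSK libraries, against 198, 220 and 199 in DMSO libraries (-0.96 ± 0.17, limma adjusted p = 0.000134). Of 13 genes of SREBP processing and sterol-driven degradation, Rnf139, a ubiquitin ligase, rose (0.48), and Nfyb and Nfyc, subunits of NF-Y, fell with log2 fold changes of -0.55 and -0.53 (median of the list -0.21). The protease genes Mbtps1 and Mbtps2, whose products cleave SREBP, had -0.24 each and did not pass, though both passed without GSK replicate 1 (adjusted p = 0.0346 and 0.0322). Ggps1 lost its call without GSK replicate 2, DMSO replicate 2 or DMSO replicate 3 (adjusted p up to 0.116) and with no filter on low values (0.0516), and Rnf139 without GSK replicate 2 or DMSO replicate 2 (up to 0.0735).

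Of 9 genes of lipoprotein uptake and lysosomal release, 4 rose and 2 fell (median log2 fold change -0.10). Vldlr, a receptor for lipoproteins and for reelin, had 184, 146 and 175 normalised reads in GSK libraries and 75.4, 91.1 and 81.8 in DMSO libraries (1.01 ± 0.17, limma adjusted p = 0.000129), with no overlap. Npc2, Lipa and Npc1, which release cholesterol from lysosomes, rose by 0.90, 0.65 and 0.45 on the log2 scale. Lrp1, a broad lipoprotein receptor, and Tmem97, a membrane protein that binds NPC1, fell, with log2 fold changes of -0.47 and -0.60, and Lrp8, a reelin and lipoprotein receptor, had -0.35 without passing (limma adjusted p = 0.0595), though it passed with equal library totals (0.0289), TMM scaling (0.0447) and edgeR (0.0434). Npc1 was no longer called without GSK replicate 2, DMSO replicate 2 or DMSO replicate 3 (adjusted p up to 0.0859), and Lrp1 without GSK replicate 2, GSK replicate 3 or DMSO replicate 3 (up to 0.139) and with totals that leave out globin and ribosomal-RNA-overlapping genes (0.0596).

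Of 11 tested LXR partners and other LXR targets, 2 rose and 3 fell (median -0.09). Lpl, lipoprotein lipase, had 369, 566 and 440 normalised reads in GSK libraries and 134, 127 and 199 in DMSO libraries (log2 fold change 1.58 ± 0.18, limma adjusted p = 1.71e-06), and Lpcat3, a phospholipid remodelling enzyme, rose by 0.61. Srebf1, the relative of Srebf2 that drives fatty acid genes, fell to 454, 507 and 519 in GSK libraries, against 649, 698 and 590 in DMSO libraries (-0.39 ± 0.13, limma adjusted p = 0.0242). Smpdl3a, a phosphodiesterase, and Arl4c, a small GTPase, fell too, with log2 fold changes of -0.77 and -0.56. Apoe, the main apolipoprotein of the brain, had 464, 667 and 1080 in GSK libraries and 611, 564 and 1161 in DMSO libraries, a wide and overlapping spread (-0.09 ± 0.45). Nr1h3, LXR alpha, was scarce, at 6.83, 19.3 and 13.8 in GSK libraries and 12.7, 7.73 and 4.65 in DMSO libraries, and did not pass. Of 11 sterol transfer and ester genes, Soat2, Osbpl2, a lipid transfer protein of the oxysterol-binding family (0.55), and Gramd1a, which moves sterol from the plasma membrane to the endoplasmic reticulum (0.44), rose and none fell. Of 5 tested oxysterol enzymes, Hsd3b7, an enzyme of bile acid synthesis, rose by 0.58, and Cyp46a1, the neuronal enzyme that makes a brain oxysterol able to activate LXR, fell to 19.3, 33.1 and 34.0 in GSK libraries, against 65.9, 70.5 and 79.9 in DMSO libraries (-1.33 ± 0.26, limma adjusted p = 0.000464). Several of these calls were not kept: Srebf1 without GSK replicate 2 or DMSO replicate 1 or 2 (adjusted p up to 0.131) and with no filter on low values (0.0518), Smpdl3a without GSK replicate 2 (0.0641), and Arl4c without DMSO replicate 1 or 2 (up to 0.0633). Gramd1a was no longer called without GSK replicate 3, DMSO replicate 2 or DMSO replicate 3 (up to 0.0844) and with equal library totals (0.0507), and Hsd3b7 without GSK replicate 2 or 3 or DMSO replicate 1 or 2 (up to 0.104).

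**Figure D4:**
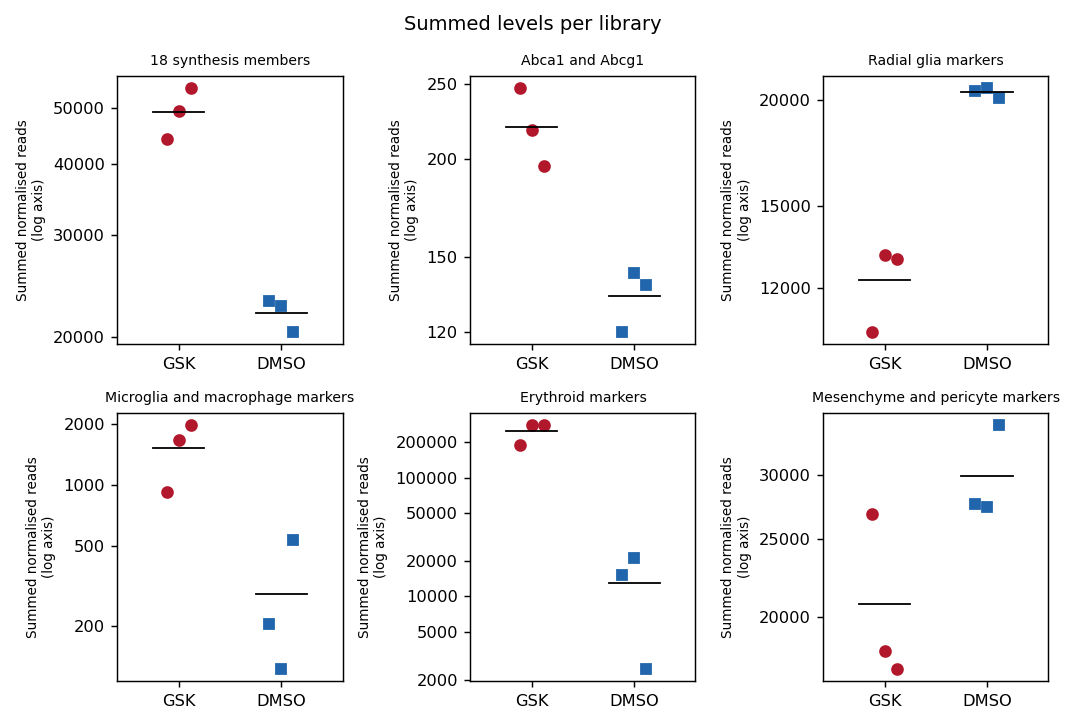
Summed normalised reads per library (log axes, each panel on its own scale) for the 18 synthesis genes, for Abca1 with Abcg1, and for markers of radial glia, microglia and macrophages, red blood cells and mesenchyme, with GSK (red circles) left of DMSO (blue squares), replicates 1 to 3 from left to right, and the mean as a line. Synthesis, erythroid and microglial sums are higher in every GSK library than in any DMSO library, and radial glial and mesenchymal sums are lower. The mesenchymal gap is narrow, between 26813 in GSK replicate 1 and 27392 in DMSO replicate 2, and collagen genes make up most of that sum.

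The cell type label was checked against markers, whose counts stand beside 17.0% of all tested genes called higher and 19.1% called lower. Radial glial markers were present in all libraries, but 8 of 9 were lower in GSK libraries (median log2 fold change -1.39). All 9 summed to 10662, 13151 and 13003 normalised reads in GSK libraries, against 20495, 20646 and 20078 in DMSO libraries. Vim, the 1 not called (-0.10, limma adjusted p = 0.627), averaged 9486 in GSK and 10127 in DMSO libraries. It thus dominates these sums, which understate the fall of the other markers. Markers of other lineages were plentiful in both groups. Pax6 averaged 446 in GSK and 1166 in DMSO libraries, beside 8858 in GSK and 15373 in DMSO libraries for Col3a1. Pdgfra averaged 968 in GSK and 822 in DMSO libraries. The label therefore does not describe all of the RNA in these libraries. Prom1, the gene of the sorted protein CD133, fell by 1.01 on the log2 scale, and Ldha, the gene of the inhibited enzyme's main subunit, fell by 0.78. The drug acts on the protein, so neither level checks its action. Erythroid markers, 9 of 10 tested higher, summed to 187201, 277645 and 274637 in GSK libraries and 15053, 21053 and 2472 in DMSO libraries. Microglia and macrophage markers, 11 of 16 tested higher, summed to 918, 1671 and 1994 in GSK libraries and 204, 122 and 535 in DMSO libraries. Of the 11, Lyz2, Trem2, Aif1, Itgam and C1qc had DMSO means below the minimum mean of 10. These were tested only through their GSK values. Trem2 was at 0 in DMSO replicates 1 and 2 and C1qb in DMSO replicate 2.

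Neuron markers summed to 21509 to 26374 in GSK and 7312 to 14760 in DMSO libraries. Of these, 3 of 9 were higher (Tubb3, Stmn2 and Snap25) and 1 lower (Neurod6), beside 17.0% and 19.1% of all tested genes. Tubb3 alone averaged 14013 in GSK and 5964 in DMSO libraries and made up most of the sum. Intermediate progenitor markers summed to 1868 to 2640 in GSK and 950 to 1330 in DMSO libraries, with 5 of 6 higher. Mesenchyme and pericyte markers summed to 17288 to 26813 in GSK and 27392 to 34581 in DMSO libraries. Of these, 2 of 9 were lower, Col1a1 and Col3a1, near the 19.1% of all tested genes called lower. The collagen genes made up most of the sum. Without passing, Pdgfra, Pdgfrb, Lum, Foxc1 and Twist1 had higher means in GSK libraries, and Col1a2 and Dcn lower ones. Endothelial markers were scarce, at 90.2 to 121 in GSK and 104 to 144 in DMSO libraries, and none of the 4 tested passed. Markers of the oligodendrocyte lineage and neural crest summed to 76.3 to 99.0 in GSK and 138 to 160 in DMSO libraries. Foxd3 was at 0 in 5 of 6 libraries and at 1 read in DMSO replicate 2. The part of these cell types in the cholesterol gene results was not tested. Total depth, 7187089 to 10224348 reads per library, overlapped between the groups (exact permutation test, two-sided, p = 0.8), and 22879 to 25585 genes had a read.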

How the data were processed

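The values deposited by the authors are normalised read counts, a signal per gene and library in 1 table, repeated on every transcript row (118098 rows), from which 1 row per gene was kept. STAR, DESeq, GRCm38 and mm10 are named, without versions or roles, per the submitters' processing notes. Which counter, annotation and strand setting were used is not given in the sources used here. In every library 100% of nonzero values were whole multiples of 1 read within 0.01, which recovered the reads and depths. The table leaves 128 genes unnamed, and a reference table gave names for 51 of them. Coordinates, exons and overlaps came from GENCODE vM21 on GRCm38, and promoter windows from RefSeq on GRCm38.p6, which held windows for 23 of the 28 genes. Near copies were found with blastn 2.17.0 at 90% identity over at least 300 bases.

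Groups were compared with limma 3.58.1 (R 4.3.3) on log2(value + 1), using trended, robust variance priors and no term besides group. The fit covered 15073 genes whose mean over the 6 libraries reached 10, and p-values were adjusted over all of them by Benjamini-Hochberg. Fold changes are on that log2 scale, which understates changes of low genes. The script was tested on simulated data. Exact permutation tests over libraries used scipy 1.17.1. The alternatives, 16 in all, were pseudocounts of 0.5 and 10, no filter, a mean of at least 100, 3 other scalings, a replicate block, each library left out, and count tests of the recovered reads with edgeR 4.0.16 and with DESeq2 1.42.0. The members and lists were chosen with earlier results of these data known. Named were all 28 members, up to 4 called genes of smallest p from each other list and Prom1 and Ldha. Acat3, other near copies, genes sharing exon bases, Acly, Mbtps1, Mbtps2, Lrp1, Lrp8, Npc1, Srebf1, Nr1h3 and Apoe were named after their values were seen. Some genes of the pathway are not reported here.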

Additional observations from a re-analysis of the deposited data

How the results depend on the processing

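Of 446 values of the 28 genes under the 16 alternatives, 428 kept their direction and side of the threshold, 15 lost the call (Hsd17b7, Abca1 and Insig2), 2 gained one (Nr1h2) and 1 changed sign. The number of synthesis genes called higher was 17 or 18 throughout, with Hsd17b7 the 1 lost, and their median log2 fold change ran from 1.04 to 1.20. Efflux genes called higher numbered 0 with a mean of at least 100, where only Mylip and Nr1h2 were tested and their median was 0.081, 1 with equal library totals, 3 with totals that leave out globin and ribosomal-RNA-overlapping genes, and 1 to 2 when single libraries were left out. With 1 library left out, the log2 fold change ran from -0.32 to 0.048 for Mylip and from -0.404 to 0.242 for Apoe. The cause of these shifts was not tested. Across all genes, calls numbered 1740 to 3071 higher and 2245 to 3264 lower, with equal totals giving 2052 higher and 3264 lower. No scaling moved the median of all genes by more than 0.1 on the log2 scale. Libraries of the same number did not deviate together (correlations across genes of 0.0131, -0.0236 and 0.0529). From 3 libraries a group, these values cannot show whether libraries of the same number share a culture or animal. With a replicate block, 18 synthesis genes, 2662 genes in all higher and 2980 lower were called. With 3 libraries a group, exact permutation tests cannot go below 0.1, and counts under about 100 normalised reads, as for the pump genes, carry the widest errors of the 28 genes.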
